A study of Mus musculus with 10 samples.

Results

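The genes of cholesterol synthesis, uptake and export were followed in the brains of Aldara-treated mice. They were 36 genes chosen by name for their place in sterol handling, with earlier results of these data known. Counts of these genes are therefore not an independent test. Of the 36 genes 33 had a probeset that carried their symbol alone, out of 19938 genes measured in this way. Acat2, Soat1 and Nr1h2 had no such probeset and were not analysed here. The 18 genes of synthesis run from Acat2 to Dhcr7 (17 measured). The other groups were 5 regulators of sterol-controlled transcription (5 measured), 5 genes of uptake, transport and esterification (4 measured) and 8 genes of export and oxysterols (7 measured).

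RNA came from perfused whole brains of wild-type female C57BL/6 mice aged 6 to 8 weeks, with 1 Affymetrix Mouse Gene array per mouse. The 5 Aldara-treated mice received 80 mg of Aldara cream on shaved dorsal skin every 24 h for 5 applications, and the 5 control mice received 80 mg of aqueous cream on the same schedule. Aldara cream holds 5% imiquimod, a ligand of the endosomal RNA sensor TLR7, together with its own vehicle, while controls had aqueous cream, so that imiquimod and that vehicle cannot be told apart. Brains were taken 24 h after the last application, which leaves 1 time point.

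The brain makes nearly all of its own cholesterol, because the blood-brain barrier keeps out plasma lipoproteins. Synthesis starts from acetyl-CoA and passes through mevalonate and squalene to lanosterol and then cholesterol. When the endoplasmic reticulum runs low in sterol, SCAP escorts the SREBP transcription factors to the Golgi for cleavage, and they switch on the synthesis genes, whereas INSIG proteins hold SCAP back when sterol is plentiful. Oxysterols, which carry an added hydroxyl group, both favour this retention and activate the liver X receptors (LXR), which switch on the cholesterol exporters.

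Values are log2 expression values that the authors had made with RMA, and a difference of 1 means a 2-fold difference. The groups were compared with limma over 23410 probesets, and a gene passed at an adjusted p (Benjamini-Hochberg) under 0.05. Of these probesets 33.4% passed, 12.4% as higher and 21.0% as lower in Aldara-treated brains, and the median log2 fold change was -0.04, so that small decreases were common. With the Aldara arrays moved to a median difference of 0, 3833 probesets were higher and 2760 lower, with every array centred on its median 2299 were higher and 9606 lower, and as deposited 2901 were higher and 4926 lower. The groups did not overlap for 25.8% of probesets, 10.5% as higher and 15.3% as lower. Neuronal genes typical of brain had high values, as with Snap25, a protein of synaptic vesicle fusion, at 13.26 ± 0.04 in Aldara-treated brains, against 13.36 ± 0.03 in control brains (SD, n = 5 each). Of 10 markers of monocytes and macrophages 9 were higher, with a list mean of 2.17 to 2.46 log2 units above the control mean in each Aldara-treated brain and within -0.08 to 0.06 in each control brain. Arrays of the same group correlated with each other at 0.995 or more.

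Synthesis genes were lower and most export and oxysterol genes were higher in Aldara-treated brains. Of the 33 measured genes 5 were higher, 21 were lower and 7 did not pass. All 5 higher genes belonged to the export and oxysterol group, where 5 of 7 were higher and 1 was lower. Among the synthesis enzymes 16 of 17 were lower and 0 were higher, against 21.0% lower and 12.4% higher over all probesets. All 17 had a mean value at or above the median of probesets, and at that level 35.1% were lower and 17.6% higher. The median log2 fold change was -0.18 for synthesis enzymes, 0.24 for export and oxysterol genes, -0.07 for the regulators and -0.07 for uptake and transport, beside -0.04 over all probesets. A log2 fold change at or below the median of the synthesis enzymes was found in 8.18% of all probesets. The decreases of synthesis genes were small, at most 22.3%. Increases reached 2.84-fold for Ch25h and 1.68-fold for Abca1, but were 1.32-fold for Nr1h3, 1.18-fold for Abcg1 and 1.10-fold for Mylip. In whole tissue, fewer cells of a type and less RNA per cell cannot be told apart. The balance rested in part on the scaling. When the median difference over all probesets was set to 0, 5 genes were higher and 13 were lower, 9 of them synthesis enzymes, and Mvk, Pmvk, Fdps, Fdft1, Cyp51, Msmo1, Dhcr7 and Vldlr no longer passed.

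**Figure D1:**
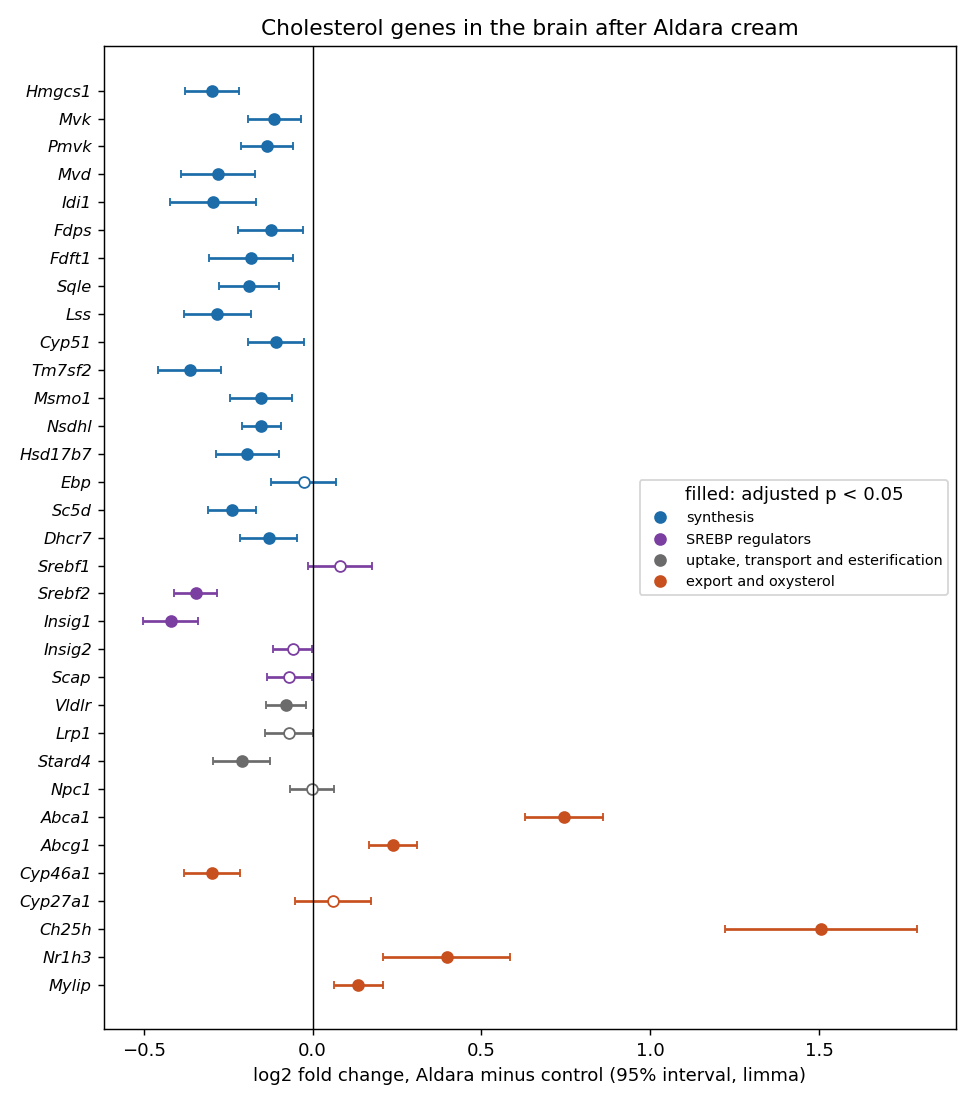
Log2 fold change (Aldara-treated minus control brains, x axis) of each of 33 cholesterol genes (rows), with its 95% interval from limma, coloured by role. Filled points passed at an adjusted p under 0.05. Of the 17 synthesis genes 16 are filled and left of 0, while Ch25h, at 1.51, and Abca1, at 0.74, lie furthest to the right.

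The promoters of these genes are shown because the genes of synthesis and export are textbook targets of SREBP and LXR. RefSeq promoters (GRCm38.p6, 250 bases before to 50 after each annotated start) were matched by symbol for 30 of the 36 genes, with 40 starts in all. Those of Fdps, Fdft1, Sqle, Stard4, Npc1 and Abcg1 were not among them. A core of the sterol regulatory element, TCACNCCA in either orientation, was found upstream of Hmgcs1, Msmo1 and Srebf2, starting 137, 177 and 162 bases before the start. This was 2 of 18 synthesis promoters (11.1%), against 4.36% of all 32851 promoters. The CCAAT box (CCAAT), which binds NF-Y, a partner of SREBP, was in 14 of 18 synthesis promoters (77.8%), against 37.4% of all. The GC box (GGGCGG), which binds Sp1, was in 15 of 18 (83.3%), against 35.7% of all. Of the 8 export and oxysterol promoters 3 held the CCAAT box and 4 the GC box. The GC box was as frequent in 8 of 10 regulator promoters (80%) and in 3 of 4 promoters of uptake and transport (75%). The CCAAT box was in 5 of 10 and 2 of 4 of these. The LXR consensus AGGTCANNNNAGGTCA was in no promoter of these genes and in 5 of all promoters. A divergent form of the same repeat, GGTTANNNNCGGTCA, was in 4 of 32851 promoters, among them that of Abca1, starting 67 bases before the start, and the most downstream of 3 promoters of Srebf1, starting 182 bases before it. This form was picked with the sequences in view. The 200 bases before the start are given 5′ to 3′ for 6 genes, namely the 3 with the sterol element, Tm7sf2 as the synthesis gene with the largest decrease, and the 2 with the LXR form. Capitals mark the motifs, in either orientation. The stretches lie at chr13:119690151-119690350, plus strand (Hmgcs1), at chr8:64733579-64733778, minus strand (Msmo1), at chr15:82147069-82147268, plus strand (Srebf2), at chr19:6067851-6068050, minus strand (Tm7sf2), at chr4:53159896-53160095, minus strand (Abca1) and at chr11:60210472-60210671, minus strand (Srebf1). Binding to these promoters was not measured, and a match shows only that the letters are there.
Hmgcs1: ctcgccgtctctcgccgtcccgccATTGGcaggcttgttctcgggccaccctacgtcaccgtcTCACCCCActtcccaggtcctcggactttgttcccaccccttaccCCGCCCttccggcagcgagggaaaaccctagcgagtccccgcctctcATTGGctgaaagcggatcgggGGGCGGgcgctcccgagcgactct
Msmo1: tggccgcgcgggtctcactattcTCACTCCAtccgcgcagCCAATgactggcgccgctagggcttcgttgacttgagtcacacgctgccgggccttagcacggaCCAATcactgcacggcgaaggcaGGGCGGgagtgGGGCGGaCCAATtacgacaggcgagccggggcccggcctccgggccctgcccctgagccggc
Srebf2: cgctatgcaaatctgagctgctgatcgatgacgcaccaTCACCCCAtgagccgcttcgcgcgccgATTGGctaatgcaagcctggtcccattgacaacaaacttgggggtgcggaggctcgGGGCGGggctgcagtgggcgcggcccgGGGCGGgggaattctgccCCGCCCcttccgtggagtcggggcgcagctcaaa
Tm7sf2: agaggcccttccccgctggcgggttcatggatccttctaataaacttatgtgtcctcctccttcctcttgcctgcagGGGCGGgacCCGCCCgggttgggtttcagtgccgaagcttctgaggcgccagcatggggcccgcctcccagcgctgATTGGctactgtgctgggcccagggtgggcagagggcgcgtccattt
Abca1: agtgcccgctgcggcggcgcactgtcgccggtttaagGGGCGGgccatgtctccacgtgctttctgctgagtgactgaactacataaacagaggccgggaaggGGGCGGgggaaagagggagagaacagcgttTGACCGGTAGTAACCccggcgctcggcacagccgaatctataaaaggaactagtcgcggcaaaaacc
Srebf1: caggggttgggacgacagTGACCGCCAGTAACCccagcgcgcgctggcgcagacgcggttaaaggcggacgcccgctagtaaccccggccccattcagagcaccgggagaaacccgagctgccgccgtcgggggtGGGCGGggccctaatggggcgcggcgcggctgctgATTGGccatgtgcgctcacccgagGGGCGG

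The listed genes of the mevalonate steps, which lead to the isoprenoid units, were all lower where measured. Acat2 was not measured. Hmgcs1 encodes the synthase that makes HMG-CoA from acetyl units, and its promoter holds the sterol element shown above. Its log2 values were 10.87, 10.89, 10.85, 10.92 and 11.04 in Aldara-treated brains, against 11.17, 11.22, 11.22, 11.21 and 11.23 in control brains. Every Aldara-treated brain lay below every control brain, with Aldara replicate 5 closest to them. Hmgcs1 thus fell by 18.6%, with a log2 fold change of -0.30 (SE, standard error, 0.04, adjusted p = 7.7e-05 from limma, and p = 0.0079 in an exact two-sided permutation test, the smallest that 5 brains against 5 allow). Mvd, the decarboxylase at the end of the mevalonate steps, averaged 8.11 in Aldara-treated brains, against 8.39 in control brains, with a log2 fold change of -0.28 (SE 0.05). Idi1, which isomerises the isoprenoid unit, averaged 9.25 in Aldara-treated brains, against 9.54 in control brains, with one of -0.29 (SE 0.06). For Idi1 the groups came close to touching, with 9.41 in the highest Aldara-treated brain and 9.41 in the lowest control brain, and its other probeset had a log2 fold change of -0.34 (SE 0.06). Decreases were smaller, and the groups overlapped, for the kinases Mvk and Pmvk and the farnesyl diphosphate synthase Fdps. Mvk averaged 8.78 after Aldara, against 8.89 in controls (log2 fold change -0.11, SE 0.04), Pmvk 8.12 after Aldara, against 8.25 in controls (-0.13, SE 0.04), and Fdps 9.40 after Aldara, against 9.52 in controls (-0.12, SE 0.04).

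Genes of the squalene and lanosterol steps were lower as well. Fdft1, which joins farnesyl units into squalene, had values of 11.24 to 11.28 in Aldara replicates 1 to 4 and 11.54 in Aldara replicate 5, against 11.42 to 11.57 in control brains. Its log2 fold change of -0.18 (SE 0.06, adjusted p = 0.026) was -0.24 without Aldara replicate 5 (adjusted p = 3.2e-04), and its other probeset had -0.15 (SE 0.06, adjusted p = 0.071). Aldara replicate 5 thus stood at the level of the control brains for this gene. Sqle, the epoxidase that is a rate-limiting step after mevalonate, and Lss, which closes the ring to lanosterol, showed no overlap between groups. Sqle averaged 9.71 after Aldara, against 9.90 in controls (log2 fold change -0.19, SE 0.04), and Lss 8.55 after Aldara, against 8.83 in controls (-0.28, SE 0.05). Cyp51, which removes a methyl group from lanosterol, averaged 9.18 after Aldara, against 9.29 in controls (log2 fold change -0.11, SE 0.04, adjusted p = 0.044).

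Among the enzymes that turn lanosterol into cholesterol, Tm7sf2, a sterol reductase, had the largest decrease of all synthesis genes. Its values were 8.18, 8.29, 8.22, 8.26 and 8.06 in Aldara-treated brains, against 8.53, 8.52, 8.55, 8.61 and 8.61 in control brains. The groups did not overlap, and here Aldara replicate 5 was the lowest, not the highest. Tm7sf2 fell by 22.3%, with a log2 fold change of -0.36 (SE 0.04, adjusted p = 4.7e-05 from limma, exact permutation p = 0.0079). Sc5d, a desaturase, averaged 10.12 after Aldara, against 10.36 in controls (log2 fold change -0.24, SE 0.03). For Sc5d every Aldara-treated brain was at or below 10.20 and every control brain at 10.35 or above. The demethylation enzymes were lower too. Msmo1 averaged 10.63 after Aldara, against 10.78 in controls (log2 fold change -0.15, SE 0.04), Nsdhl 9.56 after Aldara, against 9.71 in controls (-0.15, SE 0.03), and Hsd17b7 9.29 after Aldara, against 9.49 in controls (-0.19, SE 0.04). For Hsd17b7 Aldara replicate 5 had 9.43, above the 9.24 to 9.29 of the other Aldara-treated brains. Dhcr7, which carries out a last reduction to cholesterol, averaged 8.85 after Aldara, against 8.98 in controls (-0.13, SE 0.04). Ebp, a sterol isomerase, was the synthesis enzyme that did not pass, with 8.94 ± 0.08 in Aldara-treated brains, against 8.97 ± 0.07 in control brains (SD, n = 5 each) and a log2 difference of -0.03 (95% interval -0.12 to 0.07).

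Over the 17 synthesis enzymes, each Aldara-treated brain lay below each control brain. The mean log2 difference from the control mean was -0.20, -0.21, -0.24, -0.20 and -0.11 in Aldara replicates 1 to 5, against -0.02 to 0.02 in control brains. Aldara replicate 5 was the highest of the 5 Aldara-treated brains for 13 of the 17 genes, and Aldara replicate 3 the lowest for 9. The groups did not overlap for 9 of the 17, all as lower, beside 15.3% over all probesets. Calls of 5 enzymes were lost when 1 array was left out, which left 11 to 16 enzymes lower. Mvk lost it without Aldara replicate 2, 3 or 4 or control replicate 1, 3 or 4 (adjusted p = 0.053 to 0.072), and Dhcr7 without Aldara replicate 3 or 4 or control replicate 1 (adjusted p = 0.055 to 0.057). Fdps lost it without Aldara replicate 2, 3 or 4 or control replicate 1, 2, 4 or 5 (adjusted p = 0.059 to 0.11). Fdft1 lost it without Aldara replicate 1, 2, 3 or 4 or control replicate 1, 2 or 3 (adjusted p = 0.053 to 0.064), and Cyp51 without any array but Aldara replicate 5 (adjusted p = 0.052 to 0.10). Markers of neurons were lower beside the synthesis genes, in 8 of 8, with a median log2 fold change of -0.13 and a list mean of -0.15 to -0.12 in Aldara-treated brains, against -0.02 to 0.02 in control brains. The count of lower neuronal markers was 4 at a median difference of 0, 5 with the replicate block and 5 without control replicate 1. Of 7 measured markers of oligodendrocytes, which need much cholesterol for myelin, 1 was lower, 2 were higher and 4 did not pass, and 2 were lower without Aldara replicate 1. Of 8 astrocyte markers 4 were lower and 3 were higher. Over all probesets 21.0% were lower and 12.4% higher. The part of these cells in the result was not tested.

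**Figure D2:**
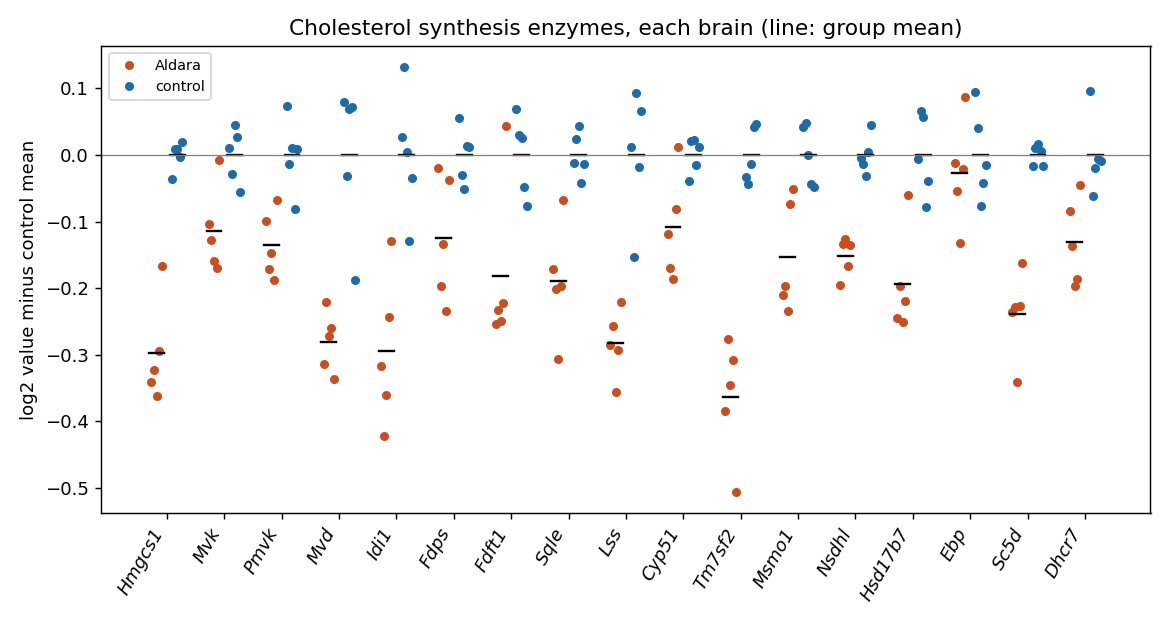
Log2 value of each of 17 synthesis genes (x axis, in pathway order) minus the mean of the control brains (y axis), in 5 Aldara-treated brains (orange, left of each pair) and 5 control brains (blue, right), with lines at the group means. The Aldara mean lies below 0 for every gene, from -0.36 for Tm7sf2 to -0.03 for Ebp, and single Aldara points reach the control range for Fdft1 and Ebp, among others.

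The sterol sensors and SREBP genes differed among themselves. Insig1, which retains SCAP in the endoplasmic reticulum and is itself an SREBP target, had the largest decrease of all 33 genes. Its values were 10.39, 10.30, 10.44, 10.34 and 10.43 in Aldara-treated brains, against 10.88, 10.72, 10.82, 10.78 and 10.81 in control brains. The groups were separated by more than the range within either. Insig1 fell by 25.3%, with a log2 fold change of -0.42 (SE 0.04, adjusted p = 4.5e-06 from limma, exact permutation p = 0.0079).

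Srebf2 encodes SREBP-2, the member of the family that chiefly drives cholesterol synthesis, and its promoter holds the sterol element as well. It had 10.11, 10.18, 10.21, 10.14 and 10.19 in Aldara-treated brains, against 10.53, 10.48, 10.47, 10.52 and 10.55 in control brains. The groups did not overlap, and Srebf2 fell by 21.3%, with a log2 fold change of -0.35 (SE 0.03, adjusted p = 2.8e-06 from limma, exact permutation p = 0.0079). A further probeset shared by Srebf2 with 3 other symbols had a log2 difference of -0.07 (SE 0.03, adjusted p = 0.14), and it was not used for the gene. Srebf1 encodes SREBP-1, which favours fatty acid genes and is also an LXR target. It had 8.87, 8.89, 8.90, 8.93 and 8.91 in Aldara-treated brains, against 8.80, 8.68, 8.85, 8.95 and 8.81 in control brains. Control replicate 4 lay above every Aldara-treated brain, and the log2 difference of 0.08 (SE 0.04, adjusted p = 0.17) did not pass. Without control replicate 4 it was 0.11 and passed (adjusted p = 0.034). Insig2 and Scap did not pass either. Insig2 averaged 10.45 after Aldara, against 10.50 in controls (log2 difference -0.06, SE 0.03, adjusted p = 0.11), and Scap 9.94 after Aldara, against 10.01 in controls (-0.07, SE 0.03, adjusted p = 0.11).

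Of the genes of uptake and intracellular transport 2 were lower and 2 did not pass, beside 21.0% lower over all probesets. Among probesets with a mean value at or above the median, 35.1% were lower. Stard4, which carries cholesterol between membranes and is an SREBP target, had 8.41, 8.33, 8.35, 8.31 and 8.39 in Aldara-treated brains, against 8.66, 8.46, 8.62, 8.53 and 8.56 in control brains. The groups did not overlap, and its log2 fold change was -0.21 (SE 0.04, adjusted p = 0.0014 from limma, exact permutation p = 0.0079). Vldlr, a receptor for lipoproteins and reelin, had 10.23, 10.18, 10.15, 10.22 and 10.25 in Aldara-treated brains, against 10.30, 10.24, 10.28, 10.30 and 10.29 in control brains. Aldara replicate 5 lay above control replicate 2, so that the groups overlapped, and the log2 fold change of -0.08 (SE 0.03, adjusted p = 0.043 from limma, exact permutation p = 0.016) lost its call without any array but Aldara replicate 5 or control replicate 2 (adjusted p = 0.056 to 0.097). The receptor gene Lrp1 averaged 11.23 after Aldara, against 11.30 in controls, a log2 difference of -0.07 (SE 0.03, adjusted p = 0.11). Npc1, which moves cholesterol out of the lysosome, had 10.53 ± 0.03 in Aldara-treated brains, against 10.53 ± 0.05 in control brains (SD, n = 5 each), with a 95% interval of -0.07 to 0.06 for the log2 difference.

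Oxysterol synthesis split between its enzymes. Ch25h, the cholesterol hydroxylase that macrophages switch on in response to interferon, had the largest log2 difference of all 33 genes. Its values were 8.55, 7.87, 8.20, 7.86 and 7.89 in Aldara-treated brains, against 6.64, 6.48, 6.80, 6.58 and 6.34 in control brains. Aldara replicates 1 and 3 were the highest, and the lowest Aldara-treated brain was more than 1 log2 unit above the highest control brain. Ch25h was 2.84-fold higher (95% interval 2.33 to 3.46, log2 fold change 1.51, SE 0.13, adjusted p = 3.5e-06 from limma, exact permutation p = 0.0079). Whether its probeset stood above background in control brains is not known. Cyp46a1, the neuronal hydroxylase through which the brain disposes of cholesterol, ran the other way, with 10.35 to 10.51 in Aldara-treated brains, against 10.66 to 10.79 in control brains. It fell by 18.7%, with a log2 fold change of -0.30 (SE 0.04, adjusted p = 9.5e-05). Cyp27a1, the mitochondrial sterol hydroxylase, did not pass, with 8.57 after Aldara, against 8.51 in controls, and a log2 difference of 0.06 (95% interval -0.05 to 0.17).

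Among the 33 genes, the exporters Abca1 and Abcg1 and the LXR gene Nr1h3 were higher. Abca1, which hands cholesterol to lipid-poor apolipoproteins and is a classical LXR target, had 10.15, 10.09, 10.17, 10.09 and 9.998 in Aldara-treated brains, against 9.25, 9.24, 9.51, 9.40 and 9.37 in control brains. The groups were well apart, and Aldara replicate 5 was the lowest of its group. Abca1 was 1.68-fold higher (95% interval 1.55 to 1.82, log2 fold change 0.74, SE 0.05, adjusted p = 6.7e-07 from limma, exact permutation p = 0.0079). Abcg1, which loads cholesterol onto formed lipoproteins, had 10.40 to 10.54 in Aldara-treated brains, against 10.22 to 10.30 in control brains, and a log2 fold change of 0.24 (SE 0.03, adjusted p = 1.5e-04).

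Nr1h3 encodes LXR-alpha, the form rich in macrophages. It had 7.72, 7.61, 7.64, 7.47 and 8.02 in Aldara-treated brains, against 7.37, 7.24, 7.41, 7.25 and 7.20 in control brains. Aldara replicate 5 was the highest and the groups did not overlap, with Aldara replicate 4 closest to the control brains. Nr1h3 had a log2 fold change of 0.40 (SE 0.09, adjusted p = 0.0037 from limma, exact permutation p = 0.0079). Mylip, an LXR target that marks lipoprotein receptors for degradation, had 9.13 to 9.20 in Aldara-treated brains, against 8.98 to 9.11 in control brains, and a log2 fold change of 0.14 (SE 0.03, adjusted p = 0.0083). Of the 7 measured export and oxysterol genes 5 were higher without overlap between groups, beside 10.5% over all probesets.

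**Figure D3:**
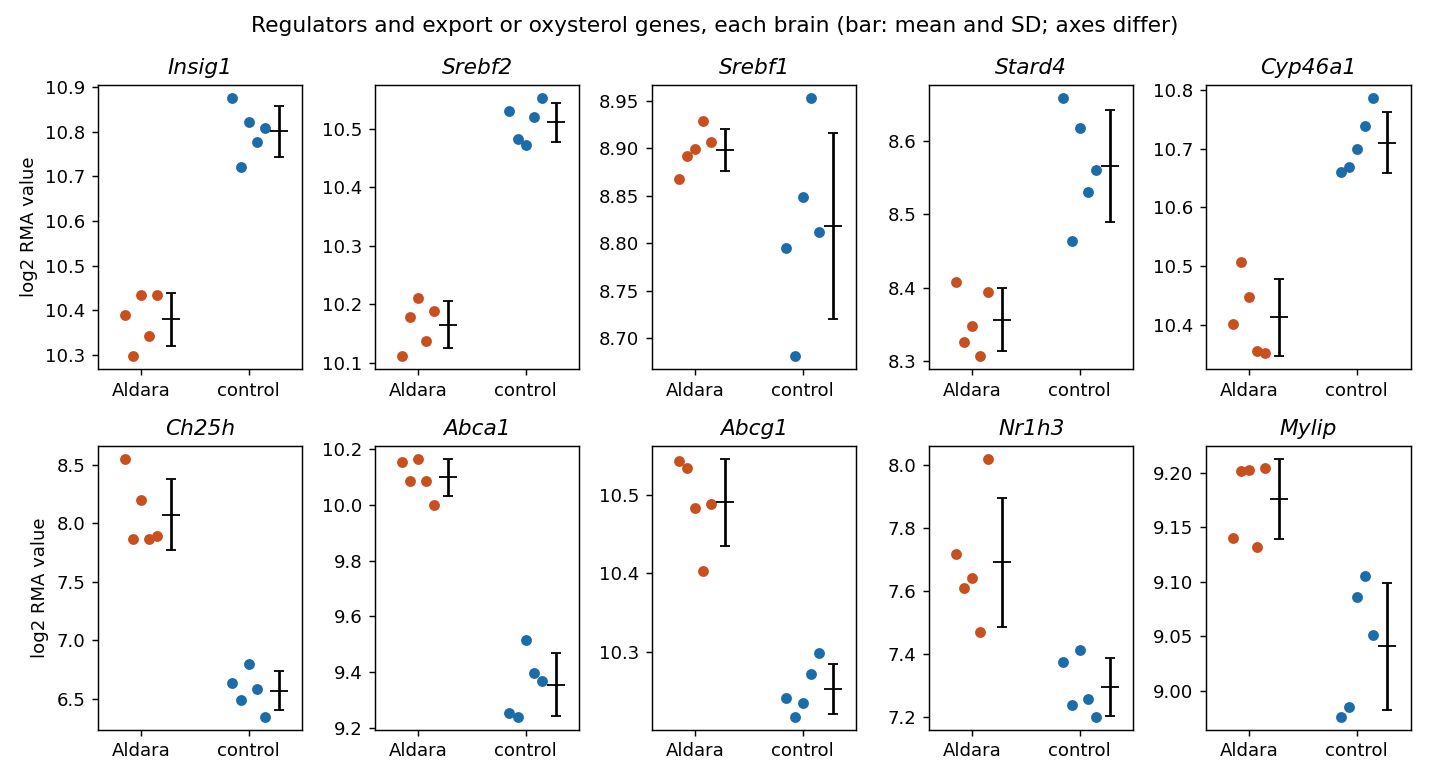
Log2 RMA values (y axes, which differ between panels) of 10 genes in 5 Aldara-treated brains (orange, left) and 5 control brains (blue, right), with the mean and SD of each group as black bars. Insig1, Srebf2, Stard4 and Cyp46a1 lie lower and Ch25h, Abca1, Abcg1, Nr1h3 and Mylip higher in every Aldara-treated brain than in any control brain, while the groups overlap for Srebf1.

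The increases of Ch25h, Abca1, Abcg1 and Nr1h3 stood beside the increase of macrophage markers given above. Of those 10 markers Ms4a7, a macrophage membrane protein, had the largest, with 9.91 ± 0.27 in Aldara-treated brains, against 5.87 ± 0.10 in control brains (SD, n = 5 each). The median log2 fold change of the 10 was 2.50, and Mrc1 did not pass, at -0.14 (adjusted p = 0.076 from limma). Of 7 measured microglial markers 4 were higher and 2 were lower, and of 6 endothelial markers 5 were higher. Of 5 T cell markers 2 were higher and 1 was lower, and of 5 markers of oligodendrocyte precursors 1 was lower. Over all probesets 12.4% were higher and 21.0% lower, so that the precursor count (20% lower) was close to that share. The part of these cells in the increases was not tested.

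Some lysosomal genes were higher among further genes of sterol handling. Of 23 measured genes in this list 6 were higher, 2 were lower and 15 did not pass, with a median log2 fold change of -0.00, beside 12.4% higher and 21.0% lower over all probesets. The lower count turned on the scaling, with 10 lower and 5 higher when every array was centred on its median and 1 lower and 9 higher at a median difference of 0. It was 1 without Aldara replicate 1, 2 or 4 or control replicate 3 or 5, and 3 without Aldara replicate 5. Lipa, the lysosomal lipase that frees cholesterol from its esters, had 9.85 ± 0.09 in Aldara-treated brains, against 8.94 ± 0.06 in control brains (SD, n = 5 each), a log2 fold change of 0.91 (SE 0.05, adjusted p = 2.6e-08). Npc2, which hands lysosomal cholesterol on to NPC1, had a log2 fold change of 0.46 (SE 0.04), and Stard5, a sterol carrier of macrophages, one of 0.31 (SE 0.03). Abcg4, a sterol transporter of neurons and astrocytes, was lower at -0.16 (SE 0.03). Of these lysosomal genes Lipa and Npc2 passed as higher, and Npc1 did not pass.

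Genes of fatty acid synthesis and desaturation, which SREBP-1 drives, changed in both directions. Of 12 genes 7 were lower, 3 were higher and 2 did not pass, with a median log2 fold change of -0.09, beside 21.0% lower and 12.4% higher over all probesets. With the replicate block 5 were lower, as at a median difference of 0. Fads1, a desaturase of polyunsaturated fatty acids, had the largest decrease, with 11.66 ± 0.04 in Aldara-treated brains, against 11.94 ± 0.03 in control brains (SD, n = 5 each) and a log2 fold change of -0.29 (SE 0.03, adjusted p = 1.7e-05). Scd1 and Scd2, which make monounsaturated fatty acids, had log2 fold changes of -0.20 and -0.16, and Fasn, the fatty acid synthase, one of -0.17. The 3 higher genes were Elovl5, Me1 and Gpam, at 0.14 to 0.16, named after their values were seen.

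**Figure D4:**
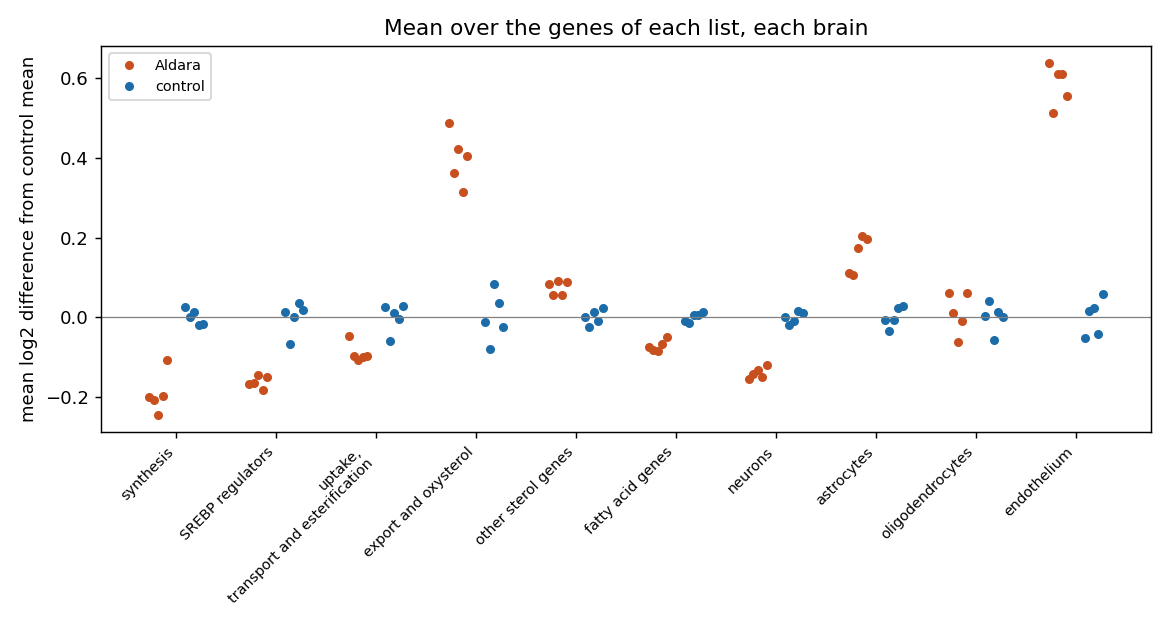
Mean log2 difference from the control mean (y axis) over the measured genes of 10 lists (x axis), in each of 5 Aldara-treated brains (orange, left) and 5 control brains (blue, right). Synthesis genes lie at -0.24 to -0.11 in Aldara-treated brains, neuronal markers at -0.15 to -0.12, and export and oxysterol genes at 0.31 to 0.49, while the groups overlap for oligodendrocyte markers.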

How the data were processed

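RNA from perfused whole brains was measured on 10 Affymetrix GeneChip Mouse Gene 1.0 ST arrays, 5 from Aldara-treated and 5 from control mice. The authors deposited log2 values that they had computed by RMA, named RMA 16 in the methods (background correction, quantile normalisation and summary per probeset) in GeneSpring GX. What the 16 stands for, the library file and the GeneSpring version were not stated there. Scanner values were not used, so background cannot be judged, and precision is limited by the number of arrays.

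Of 28856 probesets, the 23410 with at least 1 symbol in the platform annotation were tested. Each gene was taken from its probeset with 1 symbol and the highest mean over the 10 arrays. Aldara-treated and control mice, which the labels call biological replicates, were compared by lmFit and eBayes of limma 3.58.1 with no covariate in R 4.3.3, with Benjamini-Hochberg adjustment over all tested probesets, checked on simulated data. Exact two-sided permutation tests over the 10 arrays were added for single genes. Where the groups did not overlap, the exact test always gave its smallest possible value, so that it only restated the lack of overlap. The genes for which it is given were picked by the same array values, without correction for that choice. Intervals are 95%. The 36 genes and all lists were chosen with earlier results of these data known. Every gene is given with its group means or values. Array values are given for genes that passed with an absolute log2 fold change of at least 0.3 and for the 2 genes with the smallest p of each group (Srebf1 was added after its values were seen), and up to 4 sterol and 4 fatty acid genes outside the 36 are named by p. Snap25, Ms4a7, Mrc1 and the higher fatty acid genes were named after their values were seen. Of the further sterol genes Mbtps2 had no probeset with 1 symbol. Alternatives were other scalings, sets of probesets, variance models, the replicate block, array weights, the methods' t-test, the mean of a gene's probesets and leaving out each array.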

Additional observations from a re-analysis of the deposited data

Results flagged for a closer look

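Of 66 groups of 5 values (33 genes in each group of mice), 2 held a value far from the other 4. Chance alone gives about 1 in 20, so that 2 of 66 is no more than chance would give. Both of these values were of Aldara replicate 5 and lay above those of the other Aldara-treated mice and close to the control mice. For Fdft1, which makes squalene, Aldara replicate 5 stood at 11.54 (log2), while its 4 fellows lay at 11.24 to 11.28. For Hsd17b7, an enzyme of the late sterol steps, it stood at 9.43, while they lay at 9.24 to 9.29.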

How the results depend on the processing

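Under the 21 alternatives, Hmgcs1, Mvd, Idi1, Sqle, Lss, Tm7sf2, Nsdhl, Hsd17b7, Sc5d, Insig1, Srebf2, Stard4, Cyp46a1, Abca1, Abcg1 and Mylip kept their direction and their call, as did Ch25h and Nr1h3 under the 20 that tested them. When the median difference over all probesets was set to 0, which adds 1 fixed amount to each log2 fold change, 13 of the 33 genes were lower, 9 synthesis enzymes and 1 gene of uptake and transport, and the median log2 fold changes were -0.089 over all 33 genes, -0.028 for the regulators and -0.034 for uptake and transport. With every array centred on its median, 4 regulators were lower, and the medians were -0.18 over all genes, -0.23 for synthesis, -0.12 for the regulators, -0.12 for uptake and transport and 0.19 for export and oxysterol genes. These scalings moved the lower share of all probesets to 11.8% at a median difference of 0 and 41.0% when centred, against 21.0%. Among probesets at or above the median value, where Ch25h and Nr1h3 were not tested, 3 genes were higher, all 3 of the export and oxysterol group, whose median was 0.14. Of all probesets at that level 17.6% were higher and 35.1% lower. Lower among them were 16 of 17 synthesis enzymes, 2 of 5 regulators and 2 of 4 genes of uptake and transport. Leaving out 1 array gave 0 to 1 higher regulators and 1 to 2 lower genes of uptake and transport (1 without any array but Aldara replicate 5 or control replicate 2). Ebp and Npc1, which did not pass, changed sign when that median difference was set to 0 (0.015 and 0.040), Npc1 also with quantile normalisation (0.0015) and with array weights (0.0060), and without 1 array they ranged from -0.055 to 3.3e-05 (Ebp) and from -0.015 to 0.013 (Npc1). The methods' t-test called 13 synthesis enzymes lower, without Fdps, Fdft1 and Cyp51, beside 19.2% of all probesets. Array medians over the tested probesets were 8.16 to 8.19 in Aldara-treated brains, against 8.10 to 8.14 in control brains. Centring therefore lowered every log2 fold change by 1 fixed amount. Why the medians differed, and the cause of the shifts under the other settings, was not tested.

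Same-numbered mice of the groups deviated together with correlations of 0.18, 0.25, 0.04, -0.11 and 0.07. For Aldara replicates 1 and 2, but not 3, 4 and 5, the same-numbered control mouse was the one that correlated best. The labels do not say whether the numbers pair the mice, and these correlations cannot settle it. With the replicate block, 17 of the 33 genes were lower, 13 synthesis enzymes among them, and 1 gene of uptake and transport, beside 18.9% of all probesets lower and 11.5% higher.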
